A study of Mus musculus with 12 samples.

Results

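High mobility group proteins and histone variants are small chromatin proteins that take part in how tightly DNA is held. *Ptma*, listed with them here, encodes a nuclear protein of neither kind that binds histones. The 10 genes described here are *Hmgb1*, *Hmgb3*, *Hmgn1*, *Hmgn2*, *Hmga1*, *H2afz*, *H2afx*, *H3f3a*, *H3f3b* and *Ptma*, taken by symbol from the 32286 mouse and transgene features of the count files. The list was put together with results of these data in view, levels in neuroblasts among them. Levels by cell type and the comparisons of cycling with non-cycling cells and of cycle phases are therefore given as a description of the members. Nothing is inferred from them.

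The superior mesenteric ganglion (SMG), a sympathetic ganglion where tumors of this model arise, was dissociated and profiled by 3' droplet RNA sequencing in 12 mice of the 129+Ter/SvJcl background. Mice of 3 weeks of age comprised 10 Th-MYCN+/- animals and 1 wild-type (WT) animal, and a single Th-MYCN+/- animal was 6 weeks old. Th-MYCN+/- mice carry 1 allele of a human MYCN transgene driven by the rat tyrosine hydroxylase promoter, which is active in sympathetic cells. The 6-week-old ganglion was picked because a tumor was visible at dissection, so age and visible tumor cannot be told apart, and WT and 6 weeks rest on a single mouse each.

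Files held 1147771 to 6388765 unique molecular identifiers (UMIs, each standing for 1 captured RNA) per mouse, and 12075 cells were kept, 522 to 1891 per mouse; 93 barcode sequences were cells in more than 1 library. Replicate 2 of the 3-week-old Th-MYCN+/- mice stood apart, with 39.3% of its UMIs in cells, 6 neuroblast-like cells in the state analysis and an estimated 73.4% free RNA in its neuroblast-like cells; it entered no test between states. Clustering left out chromatin genes, and marker lists put 3039 cells in the neuroblast-like class, 2885 in the Schwann-like class and 2760 in the ganglion-like class. Smaller classes were NKT-like (43 cells), fibroblast-like (141), myofibroblast-like (168), macrophage-like (243) and endothelial-like (531). A further 2265 cells stayed unnamed, most of them in 1 cluster with a median of 488 UMIs. Values below are UMI counts scaled to the usual CPM by all UMIs of a class in 1 mouse. Since only the 3' end of each RNA is read, a CPM value needs no correction for length. It is a share of the captured RNA of a class and not a number of molecules per cell.

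HMGB proteins bend DNA, HMGN proteins bind nucleosomes and loosen chromatin, and HMGA proteins bind AT-rich DNA. H2A.Z, encoded by *H2afz*, marks promoters, and H2A.X, encoded by *H2afx*, is phosphorylated around DNA breaks. The variant H3.3 is laid down outside of replication and is encoded by both *H3f3a* and *H3f3b*, while prothymosin alpha, encoded by *Ptma*, is an acidic nuclear protein of growing cells that binds histones. Most replication-dependent histone mRNAs lack a poly(A) tail and are poorly caught by poly(A) priming.

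Both H3.3 genes encode 1 protein and took different courses below, so their promoters are shown with that of *H2afz*, as the 250 bases before the RefSeq start site in GRCm38.p6, read 5' to 3'. Capitals mark CCAAT boxes (CCAAT), GC boxes (GGGCGG), E-boxes (CACGTG), CHR elements (TTTGAA) and E2F motifs (TTTNNCGC), on either strand.

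H3f3a, chr1:180813606-180813855, minus strand: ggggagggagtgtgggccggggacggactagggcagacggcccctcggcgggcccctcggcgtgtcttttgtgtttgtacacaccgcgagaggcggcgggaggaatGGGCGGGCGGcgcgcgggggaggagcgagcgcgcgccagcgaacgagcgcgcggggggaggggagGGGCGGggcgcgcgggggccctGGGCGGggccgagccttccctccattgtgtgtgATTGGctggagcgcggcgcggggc

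H3f3b, chr11:116024505-116024754, minus strand: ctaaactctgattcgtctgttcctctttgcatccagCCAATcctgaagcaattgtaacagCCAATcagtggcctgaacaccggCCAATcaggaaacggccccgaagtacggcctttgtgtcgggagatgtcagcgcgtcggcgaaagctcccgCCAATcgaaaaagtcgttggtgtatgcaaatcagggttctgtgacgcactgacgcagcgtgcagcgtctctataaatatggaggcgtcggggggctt

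H2afz, chr3:137864237-137864486, plus strand: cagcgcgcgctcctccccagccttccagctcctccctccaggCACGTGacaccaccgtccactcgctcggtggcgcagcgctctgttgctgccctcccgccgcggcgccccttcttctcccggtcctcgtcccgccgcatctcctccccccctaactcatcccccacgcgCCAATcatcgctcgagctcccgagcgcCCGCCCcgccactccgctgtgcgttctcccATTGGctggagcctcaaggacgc

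The *H3f3b* window held 4 CCAAT boxes and no GC box, and the *H3f3a* window held 1 CCAAT box and 4 GC boxes, 2 of which overlap. Among all 32851 promoters of this length, 33.8% held a CCAAT box, 32.7% a GC box, 16% a CHR element, 6.02% an E-box and 4.28% an E2F motif. Of the 9 listed members, 6 held a CCAAT box, 7 a GC box, 2 an E-box, 1 a CHR element and 1 an E2F motif in their first listed promoter; *H2afx* had no entry. *H3f3a* lies at chromosome 1, 180800832 to 180813943, and *H3f3b* at chromosome 11, 116021912 to 116027962, both on the minus strand. Their coding sequences of 411 bases differed at 95 bases in 83 of 137 codons and encoded the same residues.

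Among the named cell classes, mean levels were highest in neuroblast-like cells for every gene but *Hmga1*. Unnamed cells, left out of this order, had *Ptma* at 12065 ± 2687, *H2afz* at 3520 ± 983, *Hmgn2* at 702 ± 302 and *H2afx* at 363 ± 125 CPM (SD, n = 10 mice). *Ptma* was the most abundant, at 13158 ± 2069 CPM (SD, n = 10 mice) in neuroblast-like cells against 2767 ± 399 in ganglion-like and 2276 ± 964 in Schwann-like cells. *H2afz* came to 3756 ± 807 CPM in neuroblast-like, 806 ± 160 in ganglion-like and 423 ± 362 in Schwann-like cells. *Hmgn2* stood at 1168 ± 346 CPM in neuroblast-like and 77.8 ± 46.2 in ganglion-like cells, and *H2afx* at 563 ± 147 and 38.3 ± 24.3. *H3f3b* was spread more evenly: myofibroblast-like cells, at 5062 ± 929 CPM, lay within the spread of neuroblast-like cells, at 5082 ± 1096, and Schwann-like cells had 3731 ± 1068. Neuroblast-like cells were above ganglion-like cells of the same mouse in every mouse for 9 of the 9 members with at least 50 CPM, beside 23.1% of all 4086 genes, and above Schwann-like cells for 9 of 9, beside 26.5%. Non-cycling neuroblast-like cells, defined below, were above ganglion-like cells in every mouse for 7 of 9, beside 14.9% of genes, and above Schwann-like cells for 4 of 9, beside 22.7%, namely *Hmgb3*, *Hmgn2*, *H3f3a* and *Ptma*. The levels were part of the choice of these genes, so nothing is read from the counts. The median log2 ratio of neuroblast-like to ganglion-like cells over the 10 genes was 2.36, and 2.40 without replicate 2.

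**Figure D1:**
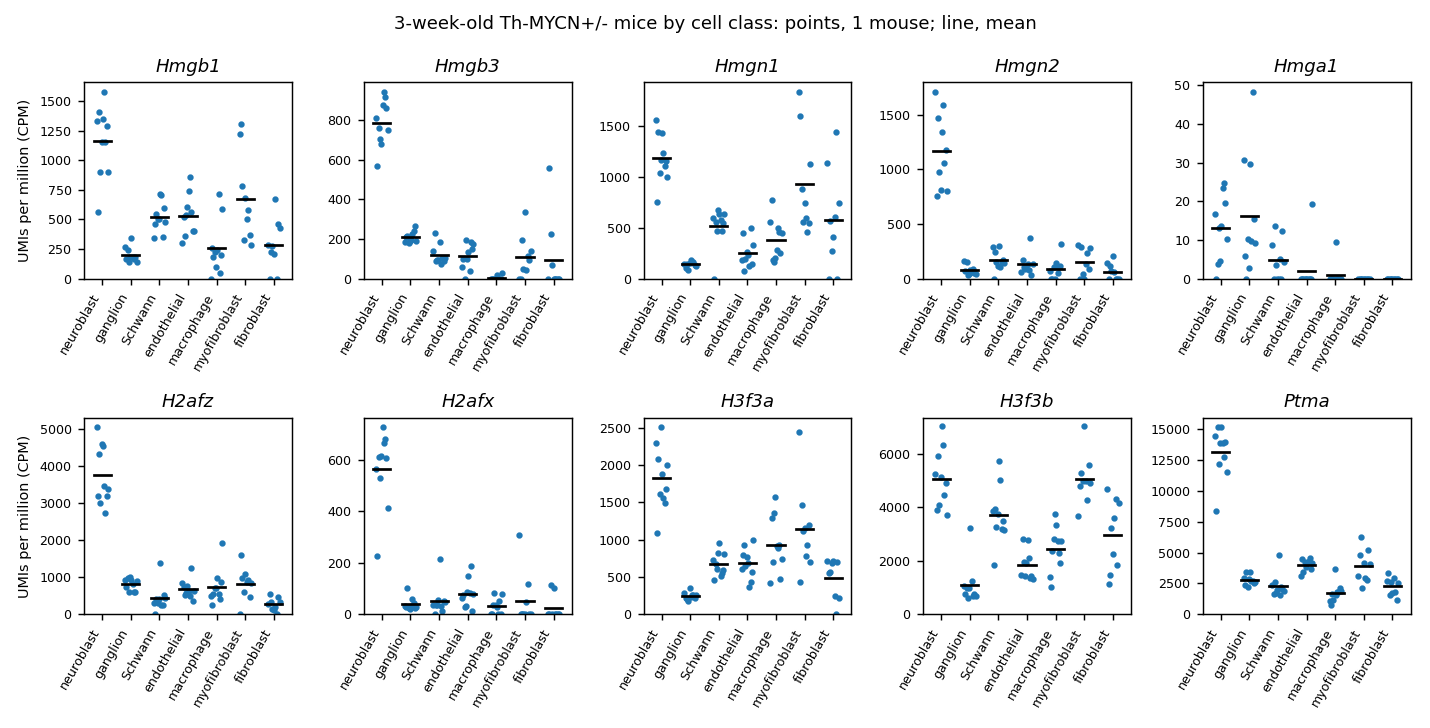
CPM of each gene (y axis) by cell class (x axis) in 3-week-old Th-MYCN+/- mice; each point is 1 mouse and each line the mean. Among the classes shown, which leave out unnamed cells, *Ptma* and *H2afz* stand clear in neuroblast-like cells in all 10 mice. *H3f3b* of myofibroblast-like and neuroblast-like cells overlaps.

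Ganglion-like cells were lowest or second lowest of 8 classes for *Hmgb1* (202 ± 64.5 CPM), *Hmgn1* (141 ± 28.8) and *H3f3a* (245 ± 48.1), and *Hmgb3* was instead second there, at 210 ± 28.0. Macrophage-like cells had little *Hmgb3*, at 4.57 ± 9.80 CPM. Empty droplets held every member, with *Ptma* at 7555 ± 2597 and *H2afz* at 2311 ± 847 CPM, and subtracting an estimate of this free RNA raised the median log2 ratio of neuroblast-like to ganglion-like cells to 3.27.

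*Hmga1* could hardly be measured. It stayed between 0 and 24.8 CPM in neuroblast-like cells and between 0 and 48.4 CPM in ganglion-like cells, and fell short of the count filter in all tests between states. Of the 31-base words in its last 300 transcript bases, 83.5% also occur in *Hmga1b*, and only 390 UMIs were assigned to *Hmga1* and 371 to *Hmga1b* over all cells. The same words were shared with annotated copies for 65.4% of *Hmgn2*, 60.4% of *Hmgb1*, 57.8% of *Hmgb3*, 44.2% of *H3f3a*, 32.8% of *Ptma*, 32.7% of *Hmgn1* and 28.4% of *H2afz* words, against 0 for *H2afx* and *H3f3b*, so levels of the former are uncertain against those of other genes.

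Neuroblast-like cells with at least 1000 UMIs were split by cell cycle genes, none of them a member. Each cell was thinned to 1000 UMIs and called cycling with at least 4 UMIs of 41 S and 48 G2M genes and non-cycling with at most 1. Of 2624 cells, 1976 were cycling, 316 non-cycling and 332 lay between. *Top2a*, a topoisomerase gene of dividing cells that served in the split, was at 256 ± 38.4 CPM (10 mice) in cycling and 3.29 ± 6.12 (9 mice) in non-cycling cells.

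*H2afx* had the largest difference of the members. In 9 mice its level ran from 51.1 to 221 CPM, median 139, in non-cycling cells and from 680 to 821 CPM, median 746, in cycling cells, so that the ranges lay far apart. The edgeR difference of cycling minus non-cycling was 2.64 ± 0.19 (log2, SE). *H2afz* ran from 904 to 2288 CPM, median 1191, in non-cycling and from 3058 to 5854, median 4868, in cycling cells, a log2 difference of 1.74 ± 0.13.

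Among the HMG genes, *Hmgn2* ran from 169 to 853 CPM, median 420, in non-cycling and from 1002 to 1954, median 1377, in cycling cells (log2 difference 1.74 ± 0.16). *Hmgb1* ran from 286 to 731 CPM in non-cycling and 1113 to 1783 in cycling cells (1.62 ± 0.12). *Hmgb3* (1.05 ± 0.12) and *Hmgn1* (0.98 ± 0.14) differed less, and their ranges did not overlap either.

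*Ptma* was already high in non-cycling cells, at 5651 to 10000.2 CPM, and reached 13431 to 16728 CPM in cycling cells (log2 difference 0.83 ± 0.09). *H3f3b* had the same log2 difference of 0.83 ± 0.12, but its ranges of 1526 to 5161 and 4683 to 7303 CPM overlapped. *H3f3a* ran from 1117 to 2405 CPM, median 1570, in non-cycling and from 1464 to 2628, median 1903, in cycling cells, was higher in 6 of 9 mice, and differed by 0.21 ± 0.12.

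Of the 9 members that passed the count filter, 8 were called higher at a false discovery rate (FDR) below 0.05 and 0 lower, beside 14.4% of 5549 genes called higher and 29.4% called in either direction. Members above in every mouse were 8 of 9, beside 13.4% of genes. The genes may have been chosen on this contrast, so these counts are no test of the members and nothing is read from them. Non-cycling sums also carried more ganglion and Schwann markers, 10234 ± 7388 CPM against 2663 ± 1183 in cycling sums of the same 9 mice. In cells with at most 5 such UMIs per 1000, a limit set after the data had been seen, the sum of both lists was 3553 ± 339 CPM in non-cycling and 2029 ± 147 in cycling cells, and log2 differences were smaller, with *H2afx* at 2.31 ± 0.15, *H2afz* at 1.55 ± 0.10, *Hmgb1* at 1.28 ± 0.10, *Hmgn1* at 0.58 ± 0.08 and *H3f3a* at -0.06 ± 0.07. The part of the remaining marker difference was not tested.

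**Figure D2:**
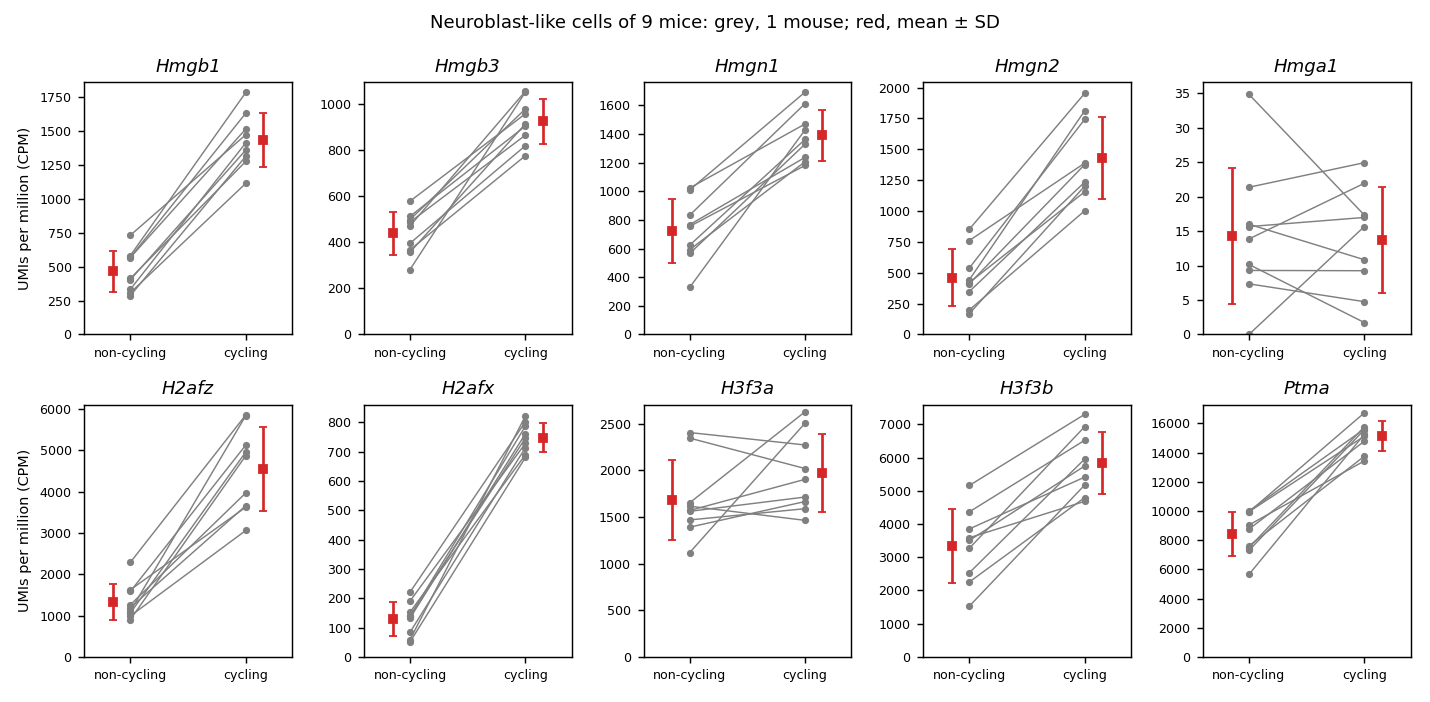
CPM of each gene (y axis) in non-cycling and cycling neuroblast-like cells (x axis); each grey line joins the values of 1 of 9 mice and red squares are mean ± SD. Lines of *H2afx* rise from at most 221 to at least 680 CPM, while those of *H3f3a* and *Hmga1* cross.

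Levels along the number of cycle UMIs showed distinct courses. *Hmgb1* was 1.80 times its lowest-bin level at 2 to 3 cycle UMIs and 2.57 times at 4 to 7, whereas *H2afx* was at 1.74 and 1.72 times there and reached to 4.63 times at 8 to 15 and 8.56 times at 16 or more. *Ptma* changed little past 4 to 7 UMIs, from 1.66 to 1.88 times. *H3f3b* reached 2.04 times in the highest bin, and *H3f3a* stayed at 1.14 to 1.20 times in all bins above the lowest. The *H2afx* value at 2 to 3 UMIs rested on replicate 6, at 927 CPM from 17 cells against a median of 144 CPM over 9 mice, and was 1.13 times without it. These bins were set after the data had been seen.

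**Figure D3:**
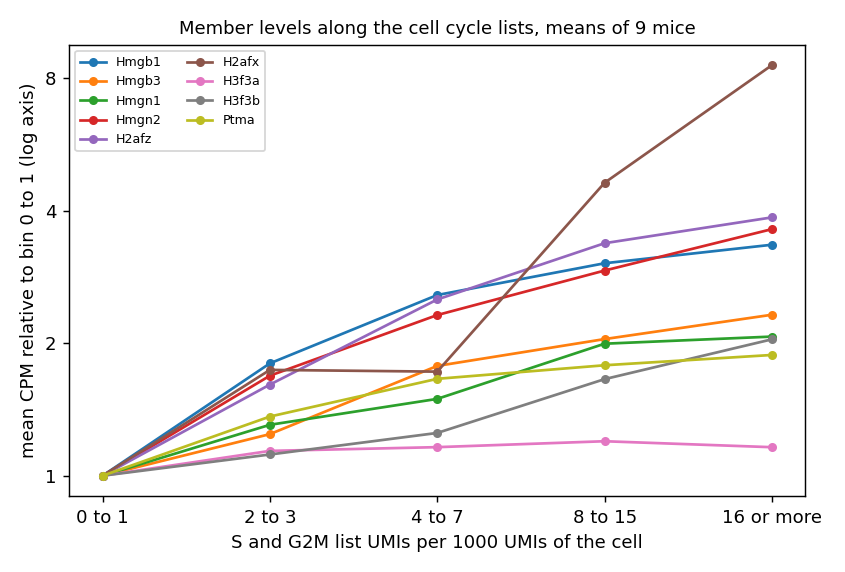
Mean CPM over 9 mice relative to cells with 0 to 1 cycle UMIs (y axis, log scale) by UMIs of the S and G2M lists per 1000 UMIs (x axis), 1 line per gene without *Hmga1*. *H2afx* ends at 8.56 times and *H3f3a* at 1.16 times its lowest-bin level.

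The split between both H3.3 genes does not depend on scaling to library size. Its height is uncertain, since 44.2% of *H3f3a* words and 0 of *H3f3b* words were shared with annotated copies. *H3f3b* made up 65.6% ± 6.31 (SD, n = 9 mice) of H3.3 UMIs in non-cycling and 74.6% ± 4.52 in cycling neuroblast-like cells. The share was higher in cycling cells of 9 of 9 mice, by 9.07 ± 3.55 percentage points (SD). This too is a description, since it compares the same states. Schwann-like cells stood at 84.3% ± 3.19 and ganglion-like cells at 78.9% ± 6.21 (10 mice each), and empty droplets at 73.2% ± 5.22. In the 6-week-old mouse the share was 65.7% in cycling and 61.9% in non-cycling cells, and in the WT mouse it was 88.2% in ganglion-like and 90.2% in Schwann-like cells.

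**Figure D4:**
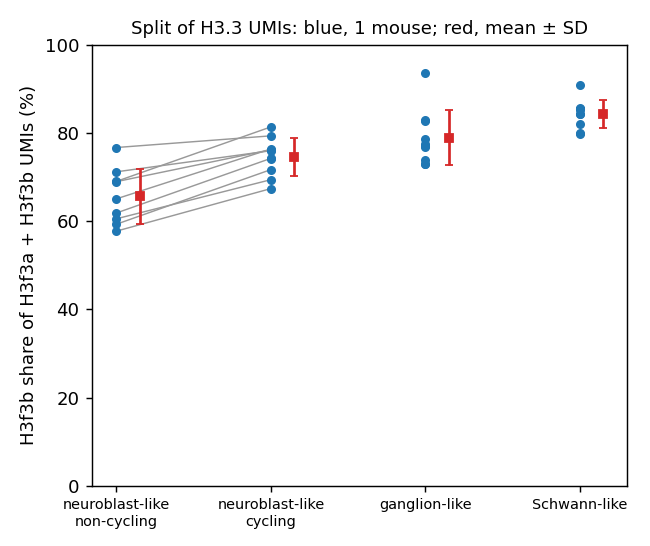
Share of *H3f3b* in *H3f3a* plus *H3f3b* UMIs (y axis, %) by cell group (x axis); blue points are mice, grey lines join 1 mouse and red squares are mean ± SD. The share is higher in cycling than in non-cycling neuroblast-like cells in 9 of 9 mice.

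Within cycling cells, 1195 had more G2M and 662 more S UMIs. *H2afx* rose from 350 to 615 CPM (median 517) in S to 773 to 1044 CPM (median 873) in G2M cells, ranges that did not overlap, with a log2 difference of 0.78 ± 0.09 (edgeR, FDR 7.55e-06). *Hmgn2* was higher in G2M cells of 9 of 9 mice, at 1635 ± 362 against 1089 ± 234 CPM (0.59 ± 0.06, edgeR FDR 7.35e-07). *Hmgb3* (0.39), *H2afz* (0.30), *Hmgb1* (0.24), *Hmgn1* (0.23), *H3f3b* (0.22) and *Ptma* (0.12) were also higher by smaller log2 differences, and their ranges overlapped. With cells thinned to 1000 UMIs *Hmgb1* did not pass (edgeR FDR 0.111). *H3f3a* did not pass the test, at -0.04 ± 0.04 (edgeR FDR 0.618). In all, 8 of 9 tested members were called higher, beside 5.49% of 5063 genes called higher and 10.7% called either way. The genes may have been chosen on levels in these same cells. The counts and FDRs are therefore no test of the members and nothing is read from them. Without the mouse as a block the calls of *H2afz*, *Hmgb1*, *Hmgn1*, *H3f3b* and *Ptma* did not pass (edgeR FDR 0.280 to 0.463). Since both sums of a mouse share a library, the blocked values are the ones given.

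Other chromatin genes, in lists also chosen with earlier results known, were tested in the same fits. Any of them in the S and G2M lists had been taken out, and the other genes of those lists called the states. The counts and log2 differences here are a description and no test of these lists, and nothing is read from them. Of 22 tested histone chaperone genes, 15 were called higher and 0 lower in cycling cells, and of 7 other variant genes 5 and 0. For 5 other HMG genes the counts were 2 and 0, and for 6 tested replication-dependent histone genes (67 listed) 3 and 2. Beside these, 14.4% of all genes were called higher and 29.4% in either direction. *Cenpa*, the centromeric H3 variant, differed most (log2 difference 5.89 ± 0.27), followed by *Hmgb2* (4.66 ± 0.25), the H3-H4 chaperone gene *Asf1b* (4.59 ± 0.38), *Hist1h2bj* (4.07 ± 0.46) and *Chaf1b* (3.45 ± 0.30), a subunit of the replication-coupled assembly factor. The lower ones were *Hist3h2a* (-0.86 ± 0.19) and *Hist3h2ba* (-0.65 ± 0.17). Between phases 2 of 21 chaperone genes were higher and 4 lower in G2M cells, and 3 and 1 of 5 other HMG genes. The counts were 4 and 0 of 7 other variant genes and 1 and 0 of 7 replication-dependent histone genes. Beside these, 5.49% of all genes were called higher and 10.7% in either direction. *Chaf1b* (-1.35 ± 0.19), *Hmg20b* (-1.04 ± 0.32), *Chaf1a* (-0.96 ± 0.17), *Asf1b* (-0.36 ± 0.11) and *Npm1* (-0.19 ± 0.05) were lower in G2M than in S cells, while *Cenpa* (2.65 ± 0.14), *Hist1h2bc* (1.35 ± 0.23), *Hmgn5* (0.87 ± 0.16), *Hmgb2* (0.75 ± 0.07) and *H1fx* (0.59 ± 0.09) were higher.

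Cells with a transgene UMI were then set against those without. H-MYCN was detected in 724 of the 2624 cells at 1000 UMIs, and 74.3% of these against 75.7% of the others were cycling. None of the 9 tested members was called by edgeR, beside 0.174% of 5751 genes (10 genes; 522 genes and 2 members had an unadjusted p below 0.05, and DESeq2 called 0 members). The 2 members were *Ptma* (log2 difference 0.10 ± 0.04, edgeR unadjusted p 0.039, FDR 0.535) and *H3f3b* (0.11 ± 0.05, edgeR unadjusted p 0.040, FDR 0.537). *Hmgn1* had the largest log2 difference, 0.12 ± 0.08 (edgeR FDR 0.676), and *H2afx* was at -0.03 ± 0.08. A cell with no sampled UMI may still hold transgene RNA.

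A small number of Schwann-like cells were cycling by the same rule, 60 against 716 non-cycling over 9 mice, with 1 summed value per state and no test. *H2afz* was at 2079 CPM (95% Poisson interval 1844 to 2337, counting error only) in cycling and 286 (255 to 319) in non-cycling cells. *Ptma* was at 6098 (5689 to 6528) and 1848 (1769 to 1930), *H3f3a* at 1239 (1058 to 1441) and 680 (632 to 730), and *H3f3b* at 3989 (3660 to 4340) and 3453 (3345 to 3564). Replicate 6 gave 2 of the cycling cells and 130 of their 282 *H2afz* UMIs. Without this mouse the cycling and non-cycling values were 1418 (1202 to 1663) and 283 (252 to 316) for *H2afz*, 3761 (3402 to 4146) and 1845 (1766 to 1927) for *Ptma*, and 1008 (827 to 1217) and 685 (637 to 736) for *H3f3a*. The remaining mice differed, a spread that these intervals do not cover. Cycling cells of replicates 3, 4, 5 and 10 had 31 *H2afz* UMIs of 8873, 27 of 35392, 38 of 11562 and 48 of 20302. Those of replicates 1, 7, 8 and 9 had 0 of 1149, 2 of 8939, 1 of 9422 and 5 of 11527. *Ptma* was lower in cycling than in non-cycling cells of replicates 7 and 8 and higher in those of the other mice. With at least 6 cycle UMIs, a limit that 20 of the 60 cells met, *H2afz* was at 3352 CPM (2939 to 3807). This value includes replicate 6, since it rests on 237 *H2afz* UMIs and all cycling cells outside that mouse held 152. Neuroblast-like RNA in these cells was not separated, and its part was not tested.

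The single mice of the other conditions were set against the range of 3-week-old Th-MYCN+/- mice, with 95% Poisson intervals that cover counting error only. The WT mouse also had 35 neuroblast-like cells, with 13158 UMIs in all, which were not set against that range. In cycling neuroblast-like cells of the 6-week-old mouse 1 of 9 members lay outside, beside 10.5% of genes: *H2afx*, at 458 CPM (423 to 496) below 571 to 821. The lower end of that range came from 5 cells of replicate 2. Without this mouse the range was 680 to 821 CPM, and 4 of 9 members lay below, beside 22.8% of genes outside. The others were *Hmgb1* (1089 CPM, interval 1034 to 1146, which reached into the range of 1113 to 1783), *Hmgb3* (676, interval 632 to 721, against 775 to 1055) and *H3f3b* (4199, interval 4090 to 4310, against 4683 to 7303). In its 34 non-cycling cells 7 of 9 lay below the range, beside 21.5% of genes outside, and the intervals of 4 of the 7 cleared it, those of *Hmgb1*, *H3f3a*, *H3f3b* and *Ptma*. *Ptma* stood at 4751 CPM (4558 to 4951) against 5651 to 10000.2 and *Hmgb1* at 191 (154 to 235) against 286 to 731. Ganglion and Schwann markers summed to 28627 CPM in these cells, above the 3958 to 25765 CPM of the 3-week-old mice, and their part in the result was not tested.

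In ganglion-like cells 1 of 8 members lay outside for WT (15.2% of genes, 18.7% without replicate 2) and 2 of 8 for 6 weeks (9% of genes, 11.7% without replicate 2), with the same counts of members without that mouse. *Hmgb3* was on opposite sides, at 320 CPM (260 to 390) in WT and 134 (113 to 158) at 6 weeks against 182 to 268, though the WT interval reached into the range. These values hold free RNA, estimated at 10.2% in WT, 23.4% at 6 weeks and 13.2% to 36.3% in the 3-week-old Th-MYCN+/- mice. Subtracting it reversed the direction of the 6-week median log2 ratio, as given in the last section. Its part in the positions of single members was not tested. In Schwann-like cells 1 of 9 lay outside for WT (10.2% of genes), *H3f3b* at 5969 CPM, with an interval of 5660 to 6291 that reached into the range of 1835 to 5748, and 0 of 9 for 6 weeks (5.14% of genes). Without replicate 2, represented by 8 Schwann-like cells, 2 of 9 lay outside for WT (19.7% of genes) and 1 of 9 for 6 weeks (10.7% of genes), and *H3f3b* was then above in WT and below at 6 weeks (2837 CPM) against 3163 to 5748.

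**Figure D5:**
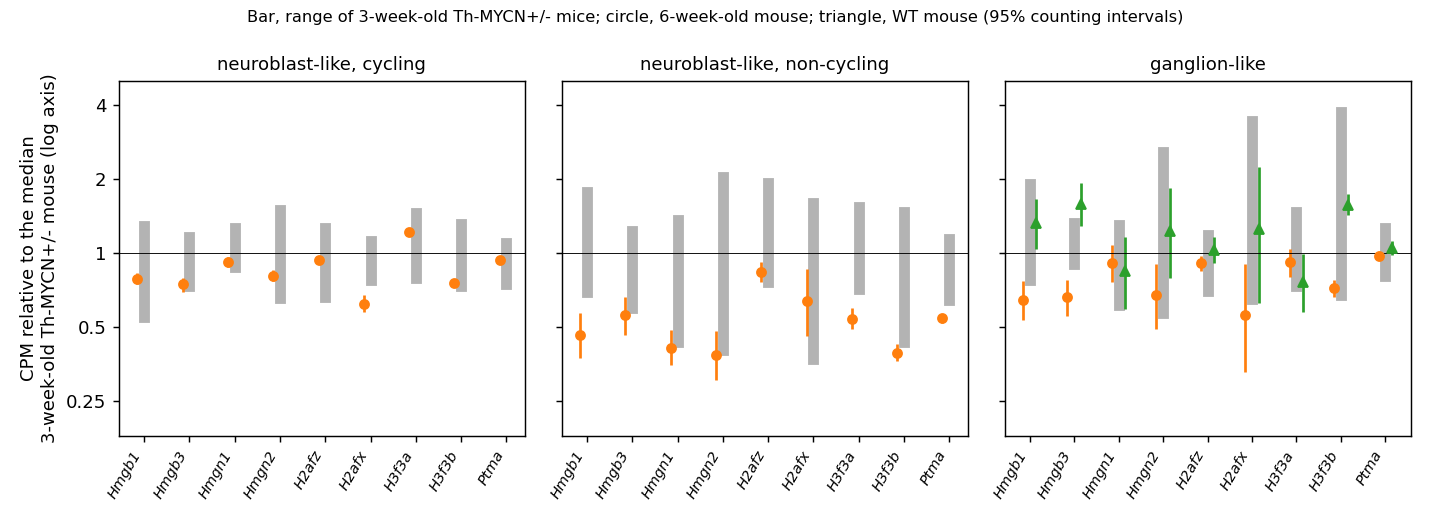
CPM relative to the median 3-week-old Th-MYCN+/- mouse (y axis, log scale) for 9 genes (x axis) in 3 cell groups; grey bars span the 3-week-old mice, replicate 2 included where it had at least 5 cells, circles are the 6-week-old and triangles the WT mouse with 95% counting intervals. In non-cycling cells 7 circles lie below the bars.

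Over 30 sums of neuroblast-like, ganglion-like and Schwann-like cells, which share libraries within a mouse, the genes closest to the members differed. *H2afx* lay nearest to *Smc4* (r = 0.97), *Birc5* (0.97) and *Cdk1* (0.96), and *Hmgn2* to *Hmgb2* (0.96), *Ube2c* (0.94) and *Tyms* (0.94). *H2afz* lay nearest to *Npm1* (0.96), *Pdap1* (0.96) and *Nudt21* (0.95), and *Hmgb3* to *Ran* (0.96), *Eif5a* (0.96) and *Ptma* (0.94). *Ptma* was closest to *Agtr2* (0.97), *Pbk* (0.97) and *Pnoc* (0.97), and *Hmgb1* to *H2afv*, *H1f0* and *Pik3r1* (0.94 each). *H3f3a* lay nearest to *Rpl7*, *Creb5* and *H1f0* (0.94 each) and *H3f3b* to *H2afv* (0.92), *Hmgb1* (0.92) and *Cnbp* (0.90). These Pearson correlations over 3386 genes are a description.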

How the data were processed

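The authors deposited raw UMI counts per gene and barcode for 12 mice, made with Cell Ranger 3.0.2 per the file headers on mm10 with the human MYCN sequence added; the submitters' notes also name Seurat. Members and gene lists were chosen with earlier results of these data known. Cells were called with a re-implementation of EmptyDrops (FDR below 0.01, ambient barcodes up to 100 UMIs, 10000 draws), with at least 200 genes, at most 10% mitochondrial and 60% ribosomal UMIs. SCTransform (Seurat 5.3.0, 2000 variable genes without chromatin genes, 30 components, resolution 0.5) gave 16 clusters, named when at least 3 markers and 50% of a list were raised 1.5 fold. Scrublet (scanpy 1.11.5) marked 0.389% of cells and was taken not to have worked, so doublets stayed.

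UMIs were summed per mouse and state (at least 5 cells) and tested with edgeR 4.0.16 (quasi-likelihood, TMM, filterByExpr, mouse as block, Benjamini-Hochberg over all genes). Both sums of a mouse come from 1 library, and their deviations correlated in 9 of 9 mice (r = 0.102 to 0.606 for cycling). Mice are separate animals. Alternatives included DESeq2 1.42.0. Named genes were all members, the 5 largest calls per direction of other chromatin genes, and the 3 nearest genes by correlation of log2(CPM + 10) among genes of at least 50 CPM. The nearest genes of *Hmgn1* are not reported here. Positions are from GENCODE on GRCm38, promoters from RefSeq GRCm38.p6.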

Additional observations from a re-analysis of the deposited data

Results flagged for a closer look

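Of 40 sets of values (10 genes in 4 cell groups over the 3-week-old Th-MYCN+/- mice), 6 had 1 mouse far from the others by Dixon's criterion, which chance meets in about 1 of 20. In Schwann-like cells replicate 6 had the highest *H2afx* (212 CPM, next 54.8), *H2afz* (1375 CPM, next 505) and *Ptma* (4839 CPM, next 2617), from 112 cells. Of these, 2 cycling cells held 28462 of the 117781 UMIs and 17 of the 25 *H2afx* UMIs. They also held 130 *H2afz* and 424 *Ptma* UMIs, so the high values rest largely on these 2 cells. Replicate 2 had *Hmgn1* at 0 CPM in 8 Schwann-like cells with 4359 UMIs in all (next 464 CPM). In ganglion-like cells replicate 6 had *H3f3b* at 3246 CPM (next 1229) from 26 cells, and replicate 3 had *H2afx* at 99.4 CPM (next 58.7) from 11 UMIs.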

How the results depend on the processing

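Of 109 values of the main comparisons under an alternative, 80 kept their direction and side of the threshold. Without a filter on low counts 1477 genes were higher in cycling cells, 461 in G2M cells and 35 in transgene-detected cells, where 219 were lower. With cells thinned to 1000 UMIs these counts were 179 higher and 153 lower (cycling), 97 and 73 (G2M) and 0 and 2 (transgene). Without cells rich in ganglion or Schwann markers, 513 genes were higher and 432 lower in cycling cells, and with stricter state limits 447 were lower. Without the replicate block 166 and 131 genes were called between phases and 0 and 0 for the transgene, where DESeq2 called 7 higher, leaving out high Scrublet scores 4 lower, and non-cycling cells alone 0 and 0. Taking away the block changed no call of a member besides the 5 given above. *Hmgb1* between phases had FDR 0.111 with thinned cells (edgeR). *H3f3a* turned to -0.065 (cycling, without marker-rich cells) and 0.0087 (phases, no filter), and to 0.41 between cycling states with no filter, which moved the median of all genes from -0.02 to 0.17. Transgene differences changed sign, none called: *H2afz* -0.0084, *Hmgb1* -0.038, *Hmgb3* -0.0082 and *Hmgn1* -0.053 (thinned), *H2afx* 0.46 and *Hmgb3* -0.077 (non-cycling cells), *Hmgn2* -0.017 (no filter). Subtracting free RNA moved the median log2 ratio to 3.27 (neuroblast to ganglion), 2.48 (non-cycling neuroblast to ganglion) and 2.31 (neuroblast to Schwann), and in ganglion-like cells to 1.26 (WT) and 0.45 (6 weeks, reversed). Thinning to 500 UMIs gave -0.20 (WT, reversed) and -0.089 (6 weeks) there, and for *Hmga1* 0.76 and 1.20 (neuroblast and non-cycling neuroblast to ganglion, both reversed). Without replicate 2 the WT ratio in Schwann-like cells was -0.028 (reversed) against 0.023, an alternative chosen after seeing the data. The *H3f3b* share differed by 6.88 to 9.46 points over alternatives. The causes were not tested. Non-cycling cells were few (315 in 9 mice), and WT and 6 weeks have no replicate.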
